A study of Mus musculus with 2 samples.

Results

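The cells described here are vascular smooth muscle cells of the mouse tongue, taken from single-cell RNA libraries by their Myh11 transcripts. A barcode was a Myh11 cell if it held at least 200 genes and under 20% mitochondrial UMIs (unique molecular identifiers, 1 per captured transcript), at least 3 UMIs of Myh11, and at least 5 UMIs of Acta2 and Tagln together. It also had to hold no UMI of the leukocyte gene Ptprc or the endothelial genes Pecam1 and Cdh5, and under 0.5% of its UMIs from the keratins Krt5 and Krt14. This gave 476 Myh11 cells among 22737 kept barcodes, of 25987 barcodes in all. There were 374 in the JQ1 library and 102 in the control library. The tissue was squamous carcinoma of the tongue, raised with the carcinogen 4NQO (4-nitroquinoline 1-oxide) in wild type C57BL/6 mice. Tumour-bearing mice then received JQ1, a small molecule that displaces BET proteins from acetylated histones, or control, for 10 days. Each treatment gave 1 library of the 10x Genomics 3' v3.1 chemistry, read on an MGI2000 sequencer. How many mice were pooled, their age and sex, and the control agent are not stated in the labels. Since each treatment has 1 library, differences are given without replicates and without tests. All intervals are 95% intervals that cover counting error only.

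Vascular smooth muscle cells wrap arteries, arterioles and veins and set vessel width by contracting. Calcium entering the cell or leaving its stores activates myosin light chain kinase, which lets smooth muscle myosin (Myh11) pull on actin filaments (Acta2). Their contractile genes are driven by serum response factor and its partner myocardin, which act at a DNA element called the CArG box. Pericytes are the neighbouring mural cells of capillaries and small venules. They carry fewer contractile fibres and are commonly marked by Rgs5, Kcnj8 and Abcc9.

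All 10 vascular smooth muscle markers listed for this check were above 10 CPM (UMIs of a gene per 1000000 UMIs of the summed cells) in both libraries, and together they made up 33460 CPM in JQ1 and 48381 CPM in control Myh11 cells. Of these, Myh11, Acta2 and Tagln are genes of the rule and had to be present. The 7 others summed to 8548 CPM in JQ1 Myh11 cells against 1554 CPM in JQ1 pericytes, and to 9693 CPM in control Myh11 cells against 1602 CPM in control pericytes. Markers of other smooth muscle (Actg2, Des and 6 more) summed to 880 and 1362 CPM, with the visceral genes Chrm2 and Nkx3-2 at 0 in both. The gate cannot tell arterial cells from other Myh11 cells of the tongue. Skeletal muscle was represented by Des alone, a gene shared with smooth muscle, while Myod1, Pax7 and Myh4 were at 0. The rule set Ptprc, Pecam1 and Cdh5 to 0, and the whole endothelial list summed to 74.5 CPM in JQ1 and 37.1 CPM in control cells. Salivary gland markers summed to 5091 CPM in JQ1 and 27.3 CPM in control Myh11 cells, haemoglobin and other erythroid markers to 7266 and 0 CPM, and fibroblast markers to 1528 and 412 CPM. Keratinocyte markers summed to 810.2 CPM in JQ1 and 1180.4 CPM in control Myh11 cells. Barcodes with at least 1% of their UMIs from the markers of another cell type numbered 26 of 374 in JQ1 (6.95%) and 1 of 102 in control (0.980%). The contractile, matrix, pericyte, interferon and chemokine lists are also given without them. For this count the fibroblast markers were taken without Col1a1 and Col1a2. The 1% limit removes only barcodes with much RNA of another type. The endothelial list itself summed to 5010 CPM in JQ1 and 5669 CPM in control endothelial cells, under that limit. The fibroblast list with Col1a1 and Col1a2 summed to 18136 CPM in JQ1 and 20669 CPM in control fibroblasts. Col1a1 made up 4481 and 7377 CPM of this and Col1a2 3237 and 4103 CPM. Without these genes a fibroblast itself lay near the limit. Mixing with fibroblasts, an even mix included, or with endothelial cells could thus pass it and is left in these values.

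The median Myh11 cell held 5322 UMIs and 2099 genes in the JQ1 library, against 4725 UMIs and 1851.5 genes in the control library. Summed UMIs came to 2347642 in JQ1 and 512537 in control Myh11 cells, so the control values are the less precise. Scrublet called 9 JQ1 (2.41%) and 2 control (1.96%) Myh11 cells as doublets, which were kept. Of 40 barcodes found in both libraries, none was a Myh11 cell in both.

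Myh11 cells made up 2.59% of kept JQ1 barcodes (374 of 14468, 2.33 to 2.86%) and 1.23% of kept control barcodes (102 of 8269, 1.01 to 1.5%). The libraries differed in their content of keratin-rich epithelial cells. Among kept cells that were not keratin-rich, the shares were 2.80% in JQ1 (2.52 to 3.09%) and 2.69% in control (2.20 to 3.26%), and these intervals overlap. Pericytes, taken with at least 5 UMIs of Rgs5, under 3 of Myh11 and the same exclusions, numbered 372 in JQ1 and 59 in control. Over the same denominator pericytes were 2.78% of JQ1 cells and 1.56% of control cells. Myh11 cells were thus 50.1% of these mural cells in JQ1 (46.5 to 53.8%) and 63.4% in control (55.4 to 70.8%). With 1 library for each treatment, the makeup of the tumour and the tissue sampled cannot be told apart.

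The cells were chosen by their measured counts of Myh11, Acta2 and Tagln, so these levels are given as a description. Myh11, the myosin heavy chain of smooth muscle, had a median of 29.7 UMIs per 10000 in JQ1 (quartiles 13.9 and 49.9) and 37.3 in control (20.04 and 51.8). Acta2, smooth muscle actin, had medians of 116 per 10000 in JQ1 (49.1 and 180) and 189 in control (93.4 and 249.9). Tagln, the actin-binding protein transgelin, had medians of 92.2 in JQ1 and 152 in control. The middle ranges of the libraries overlap for all 3 genes, and the control medians are the higher ones. At the edge of the rule, 21 JQ1 and 4 control cells held exactly 3 Myh11 UMIs, while 63 JQ1 and 7 control barcodes held 2 and met the rest. The median Acta2 level was 28.2 per 10000 just inside and 27.9 just outside in JQ1, and 27.3 and 39.9 in control. Acta2 levels on both sides of the edge were thus alike in JQ1, while the control edge rests on few cells. A further 38 JQ1 and 2 control barcodes were left out for an immune or endothelial UMI, and 5 and 5 for their keratins.

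A window of 300 bases around the transcription start is shown for 3 contractile genes, since the CArG box is the element through which serum response factor acts on such promoters. Acta2 is a gene of the rule, and Myl9 and Pcp4l1 are the listed contractile genes on which results below turn. The windows run from 250 bases before to 50 bases after the start, are from RefSeq on GRCm38.p6, and read 5′ to 3′ on the gene's strand. Capitals mark a match to the CArG box, searched by that name on both strands, exact or with at most 1 other base in its A/T stretch. They are Acta2 at chr19:34255324-34255623 (minus strand), Myl9 at chr2:156775214-156775513 (plus strand) and Pcp4l1 at chr1:171196219-171196518 (minus strand).
Acta2: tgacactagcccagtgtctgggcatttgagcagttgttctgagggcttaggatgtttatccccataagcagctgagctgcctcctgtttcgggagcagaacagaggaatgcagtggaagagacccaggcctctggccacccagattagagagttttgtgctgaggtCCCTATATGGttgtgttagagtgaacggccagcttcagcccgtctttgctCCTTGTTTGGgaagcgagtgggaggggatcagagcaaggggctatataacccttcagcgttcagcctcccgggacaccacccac
Myl9: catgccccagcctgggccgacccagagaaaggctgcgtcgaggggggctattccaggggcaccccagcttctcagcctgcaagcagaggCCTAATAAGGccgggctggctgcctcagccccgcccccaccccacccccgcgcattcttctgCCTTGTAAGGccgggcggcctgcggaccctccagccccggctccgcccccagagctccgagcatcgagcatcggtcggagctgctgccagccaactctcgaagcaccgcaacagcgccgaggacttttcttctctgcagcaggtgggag
Pcp4l1: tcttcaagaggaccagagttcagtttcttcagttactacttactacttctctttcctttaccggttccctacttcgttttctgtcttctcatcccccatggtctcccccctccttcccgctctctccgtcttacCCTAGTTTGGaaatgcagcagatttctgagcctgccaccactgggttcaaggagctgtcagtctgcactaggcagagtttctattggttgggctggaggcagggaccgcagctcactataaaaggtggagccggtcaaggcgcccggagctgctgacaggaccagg

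Myl9 had an exact match at 161 bases before its start and a second, relaxed one at 99 bases. Acta2 had relaxed matches at 84 and 34 bases before the start, and Pcp4l1 had one at 116 bases. Of 29 contractile genes matched in the promoter table, of 35 listed, 4 held an exact match (13.8%), against 488 of all 27025 genes in that table (1.81%). With 1 other base allowed, 8 of the 29 held a match (27.6%), against 3050 of all genes (11.3%). These 8 were Acta2, Myl9, Myl6, Pcp4l1, Dstn, Pdlim3, Vcl and Ldb3. A match is a description of the letters, and none of these data measured binding.

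Against pericytes of the same library, the Myh11 cells carried a broad contractile and calcium-handling programme and lower matrix, chemokine and interferon-response transcripts. Contractile counts formed the gate, so this contrast is a description. Over all genes measured in both libraries, 5.86% were at least 2-fold higher and 4.86% at least 2-fold lower in Myh11 cells in both. Of 32 measured contractile genes beside those of the rule, 24 were at least 2-fold higher in both libraries and 1 was lower. Myl9, the regulatory light chain that calcium signalling phosphorylates, had 4530.5 CPM in JQ1 Myh11 cells against 444 CPM in JQ1 pericytes, and 5529 CPM in control Myh11 cells against 515 CPM in control pericytes. Tpm2, a tropomyosin along the actin filament, had 4038 CPM in JQ1 Myh11 cells against 385 CPM in JQ1 pericytes, and 5904 CPM in control Myh11 cells against 620.4 CPM in control pericytes. Cnn1, the actin-binding calponin, had 178 CPM in JQ1 Myh11 cells against 7.77 CPM in JQ1 pericytes, and 258 CPM in control Myh11 cells against 8.8 CPM in control pericytes. All 3 were far higher in Myh11 cells of both libraries. The lower gene was Itga1, a collagen-binding integrin subunit, with 266 CPM in JQ1 Myh11 cells against 556 CPM in JQ1 pericytes, and 201 CPM in control Myh11 cells against 739 CPM in control pericytes. Des, the muscle intermediate filament, was within 2-fold in both libraries, with 321 CPM in JQ1 Myh11 cells against 296 CPM in JQ1 pericytes, and 576 CPM in control Myh11 cells against 352 CPM in control pericytes.

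**Figure D1:**
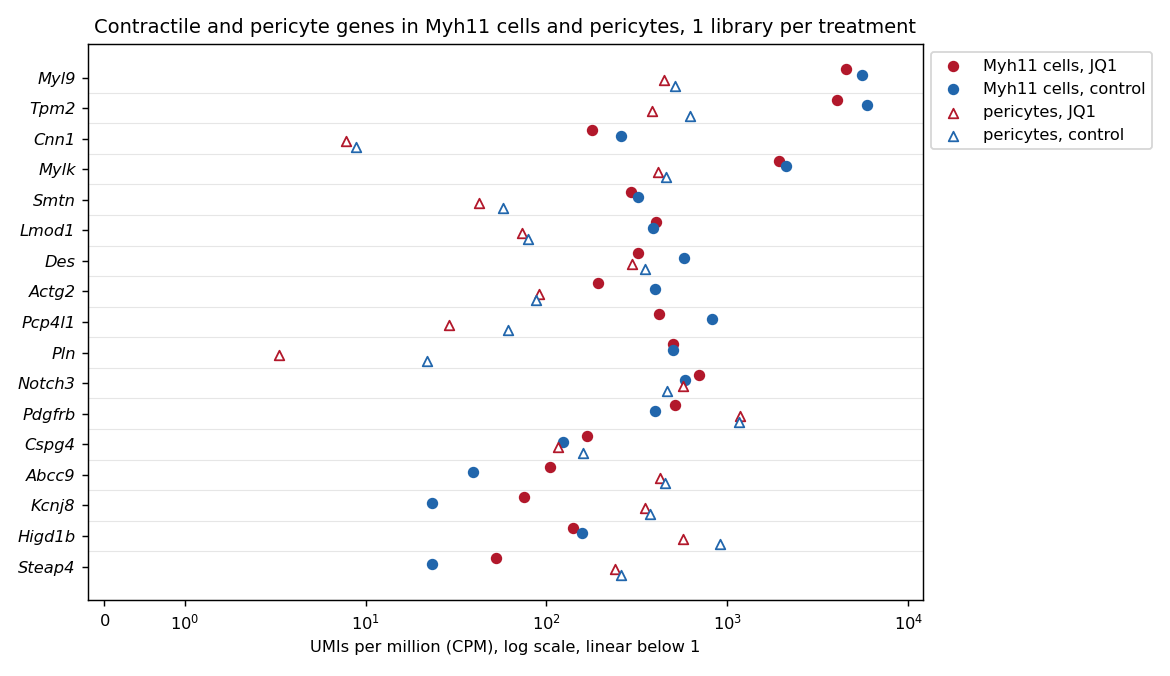
The x axis gives CPM (log scale, linear below 1) for 10 contractile or calcium-handling and 7 mural genes, with filled circles for Myh11 cells, open triangles for pericytes, red for JQ1 and blue for control, 1 library each and no error bars. For Cnn1 the circles lie at 178 and 258 CPM and the triangles at 7.77 and 8.8 CPM, while for Kcnj8 and Abcc9 the triangles lie to the right.

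Genes that move calcium and potassium also separated the cells. Of 25 measured, 12 were at least 2-fold higher and 3 lower in both libraries. Pln, the brake on the calcium pump of the sarcoplasmic reticulum, had 501 CPM in JQ1 Myh11 cells against 3.33 CPM in JQ1 pericytes, and 499 CPM in control Myh11 cells against 22 CPM in control pericytes. The ratios were 150.5 (68.9 to 411) and 22.7 (9.6 to 70.5). The control pericyte value rests on 5 UMIs, all from 1 of 59 cells. Kcna5, a voltage-gated potassium channel, had 69 CPM in JQ1 Myh11 cells against 1 UMI in JQ1 pericytes, and 103 CPM in control Myh11 cells against 0 in control pericytes. Cacna1h, a T-type calcium channel, had 61.3 CPM in JQ1 Myh11 cells against 1.11 CPM in JQ1 pericytes, and 79.99 CPM in control Myh11 cells against 0 CPM in control pericytes. Casq2, which binds calcium in the store, had 98.4 CPM in JQ1 Myh11 cells against 12.2 CPM in JQ1 pericytes, and 72.2 CPM in control Myh11 cells against 8.8 CPM in control pericytes. The 3 lower genes were Kcnj8 and Abcc9, the pore and regulator of the vascular KATP channel, and the cation channel Trpc6. Kcnj8 had 75 CPM in JQ1 Myh11 cells against 352 CPM in JQ1 pericytes, and 23.4 CPM in control Myh11 cells against 374 CPM in control pericytes, so the KATP channel genes were higher in pericytes.

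Among regulators, 2 of 26 were 2-fold higher in both libraries, Myocd and Klf2. Myocd, the partner of serum response factor, had 94.1 CPM in JQ1 Myh11 cells against 6.66 CPM in JQ1 pericytes, and 105 CPM in control Myh11 cells against 8.8 CPM in control pericytes. Srf itself was nearly level, with 106 CPM in JQ1 Myh11 cells against 97.1 CPM in JQ1 pericytes, and 105 CPM in control Myh11 cells against 83.6 CPM in control pericytes. Notch3, the receptor of mural cells, had 699 CPM in JQ1 Myh11 cells against 569.9 CPM in JQ1 pericytes, and 581 CPM in control Myh11 cells against 462 CPM in control pericytes. Prrx1, a mesenchymal transcription factor, and Zeb2 were the 2 lower regulators, with 259.8 CPM in JQ1 Myh11 cells against 629 CPM in JQ1 pericytes, and 156 CPM in control Myh11 cells against 691 CPM in control pericytes for Prrx1. In vasoactive signalling, 4 of 23 genes were 2-fold higher and 6 lower. Ednrb, an endothelin receptor, was among the lower genes, with 378 CPM in JQ1 Myh11 cells against 1126 CPM in JQ1 pericytes, and 174 CPM in control Myh11 cells against 752 CPM in control pericytes. Ednra, the other endothelin receptor, was not past 2-fold, with 204 CPM in JQ1 Myh11 cells against 284 CPM in JQ1 pericytes, and 211 CPM in control Myh11 cells against 317 CPM in control pericytes.

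Genes of the pericyte list were 2-fold lower in Myh11 cells for 12 of 20 and higher for none. Matrix genes were lower for 30 of 50. Col4a1, a basement membrane collagen, had 687 CPM in JQ1 Myh11 cells against 2336 CPM in JQ1 pericytes, and 351 CPM in control Myh11 cells against 2548 CPM in control pericytes. Sparc, a collagen-binding matrix protein, had 1908 CPM in JQ1 Myh11 cells against 6328 CPM in JQ1 pericytes, and 1405 CPM in control Myh11 cells against 6323 CPM in control pericytes. The 4 matrix genes at least 2-fold higher in Myh11 cells were Emilin1 and Ltbp1 of elastic fibres and microfibrils, Lama5 of laminin and Col4a5. Lama5 had 147 CPM in JQ1 Myh11 cells against 27.7 CPM in JQ1 pericytes, and 166 CPM in control Myh11 cells against 17.6 CPM in control pericytes. Chemokine and cytokine genes were lower for 9 of 23, and interferon and MHC class I genes for 7 of 13. By rank the genes with the highest ratios included Sorbs2, an adaptor of actin fibres, with 493 CPM in JQ1 Myh11 cells against 13.9 CPM in JQ1 pericytes, and 568 CPM in control Myh11 cells against 8.8 CPM in control pericytes. Ckb, the brain-type creatine kinase that buffers ATP, had 529 CPM in JQ1 Myh11 cells against 49.4 CPM in JQ1 pericytes, and 839 CPM in control Myh11 cells against 70.4 CPM in control pericytes. The lowest ratios included the interferon-induced Ifitm1, with 194 CPM in JQ1 Myh11 cells against 1274 CPM in JQ1 pericytes, and 156 CPM in control Myh11 cells against 1113 CPM in control pericytes. Rgs16, a regulator of G protein signalling, was low as well, with 285 CPM in JQ1 Myh11 cells against 1542 CPM in JQ1 pericytes, and 329.7 CPM in control Myh11 cells against 2402 CPM in control pericytes.

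Across 6 cell gates in each library, 12 points in all, the genes whose log2 CPM followed Myh11 most closely were ranked by Pearson's r over 2721 genes. The points share their libraries and depths, and the contractile gate forms part of the pattern. The first ranks were Fam241a and Nrip2 (both 0.96), Gpr20, Ppp1r12a, Camk2g and Pln (0.95 each), and Olfr558, Myocd, Ppp1r14a and Tcf15 (0.94 each). Ppp1r12a and Ppp1r14a encode a subunit and an inhibitor of the phosphatase that opposes myosin light chain kinase. Gpr20, an orphan G protein-coupled receptor, had 52.8 CPM in JQ1 Myh11 cells against 3.88 CPM in JQ1 pericytes, and 89.7 CPM in control Myh11 cells against 8.8 CPM in control pericytes. Nrip2, a nuclear receptor interacting protein, had 194 CPM in JQ1 Myh11 cells against 17.2 CPM in JQ1 pericytes, and 197 CPM in control Myh11 cells against 22 CPM in control pericytes.

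The Myh11 cells were not uniform in Rgs5. At least 5 UMIs of Rgs5 (Rgs5-high) were held by 193 JQ1 cells (51.6%, 46.4 to 56.8%) and 31 control cells (30.4%, 21.7 to 40.3%). No Rgs5 UMI (Rgs5-zero) was held by 125 JQ1 cells (33.4%, 28.7 to 38.5%) and 57 control cells (55.9%, 45.7 to 65.7%). The JQ1 library thus had the higher share of Rgs5-high Myh11 cells. With 1 library for each treatment this difference has no replicate check. At least 1 Rgs5 UMI was found in 66.6% of JQ1 and 44.1% of control Myh11 cells. In keratin-rich cells, which should lack the gene, it was found in 5.2% of JQ1 cells, at a median depth of 12373 UMIs, and in 0.469% of control cells, at a median depth of 17544 UMIs. The part of free RNA in the Rgs5 shares was not tested. Median depth was 4743 UMIs in Rgs5-high and 6346 UMIs in Rgs5-zero cells of the JQ1 library, and 4210 and 4864 UMIs in the control library.

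Within each library the Rgs5-high cells differed from the Rgs5-zero cells along the pericyte axis. This split is by measured Rgs5 and is a description. Over all genes measured in both libraries, 3.41% were 2-fold higher and 1.28% 2-fold lower in Rgs5-high cells in both. Matrix genes were 2-fold higher for 16 of 36, pericyte genes for 6 of 13 and chemokine genes for 6 of 16. Thy1, a surface glycoprotein of stromal cells, had 266 CPM in Rgs5-high against 16 CPM in Rgs5-zero cells of the JQ1 library, and 233 against 3.4 CPM in the control library. The mitochondrial protein gene Higd1b, a pericyte marker, had 269 against 17.2 CPM in the JQ1 library and 467 against 30.6 CPM in the control library. Tenascin C (Tnc) had 462 against 36.6 CPM in the JQ1 library and 384 against 20.4 CPM in the control library. Most of the control Tnc UMIs came from 1 Myh11 cell, and 8 of 31 control Rgs5-high cells held any. Thy1 and Higd1b were many-fold higher in Rgs5-high cells of both treatments. Tnc was many-fold higher in those of the JQ1 library, while its control values rest on few cells. Contractile genes were 2-fold lower in Rgs5-high cells for 2 of 32 and higher for none.

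Tpm2 had 2195 CPM in Rgs5-high against 6161 CPM in Rgs5-zero cells of the JQ1 library, and 3437 against 7224 CPM in the control library. Ckb had 266 against 818 CPM in the JQ1 library and 419 against 1082 CPM in the control library. Tgm2, a transglutaminase that crosslinks proteins, had 99.8 against 285 CPM in the JQ1 library and 82.3 against 275 CPM in the control library. All 3 were thus higher in the Myh11 cells without Rgs5. Timp4, an inhibitor of matrix metalloproteinases, had 21.7 against 93.8 CPM in the JQ1 library and 6.86 against 119 CPM in the control library. Perp, a desmosomal protein gene that is also on the keratinocyte list, had 36.4 against 305 CPM in the JQ1 library and 20.6 against 452 CPM in the control library, and was present in 78 of 125 JQ1 and 41 of 57 control Rgs5-zero cells. Krtdap, a gene of differentiating keratinocytes, had 9.55 against 233 CPM in the JQ1 library and 34.3 against 248 CPM in the control library, and was present in 12 of 125 JQ1 and 13 of 57 control Rgs5-zero cells. Both genes were thus higher in the Rgs5-zero cells. Over all Myh11 cells Perp had 146 CPM in JQ1 and 279 CPM in control, against 47.6 and 134 CPM in endothelial cells. The keratin Krt14 had 112 and 217 CPM in Myh11 cells, against 110 and 297 CPM in endothelial cells. The part of keratinocyte RNA in the split was not tested.

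**Figure D2:**
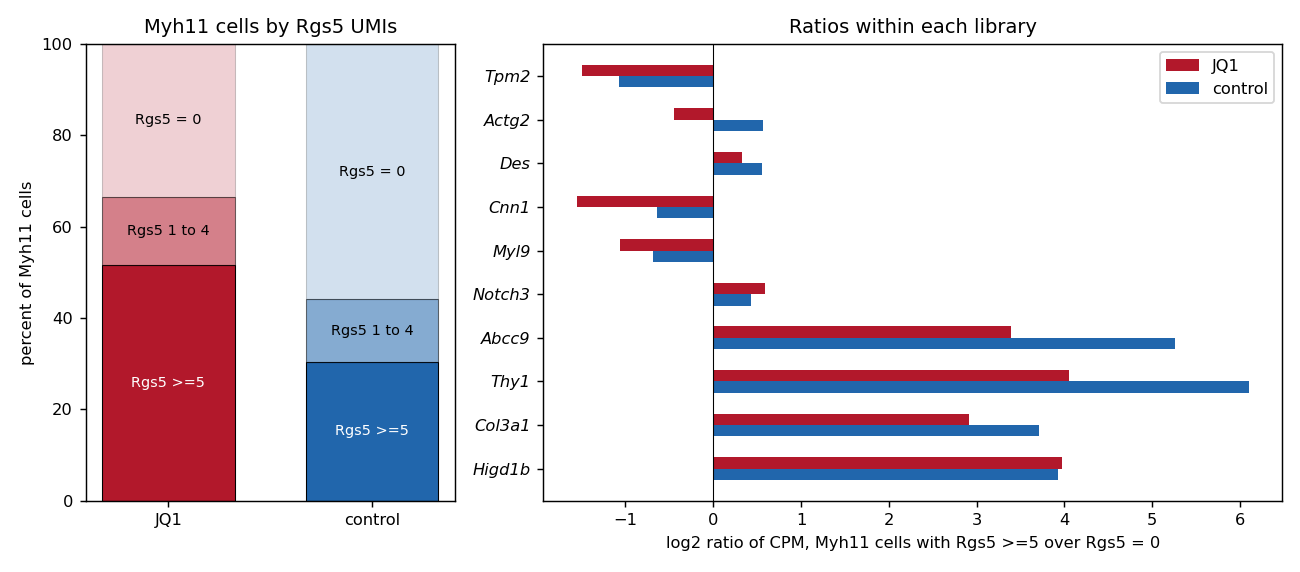
On the left, bars give the percent of Myh11 cells by Rgs5 UMIs in the JQ1 library (red) and the control library (blue), with 51.6% and 30.4% of cells at 5 or more. On the right, bars give the log2 ratio of CPM between Rgs5-high and Rgs5-zero Myh11 cells within each library, below 0 for Tpm2, Cnn1 and Myl9 and above 0 for Abcc9, Thy1, Col3a1 and Higd1b in both.

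JQ1 was then set against control within the Myh11 cells, the comparison that the study's design sets up. In JQ1 cells the contractile genes were level or somewhat lower, and most listed genes of the matrix and of interferon response and antigen presentation were at least 1.5-fold higher. Of the pericyte genes 10 of 22 were. Rrad, Cebpb, Mt1 and Cdkn1a were at least 2-fold lower. Of 8736 genes measured (at least 20 UMIs in all and 10 CPM in the higher library), 1053 were at least 2-fold higher in JQ1 cells (12.1%) and 157 at least 2-fold lower (1.8%). At 1.5-fold the shares were 23.7% and 8.25%, and the median log2 ratio was 0.13. The list counts below are to be read beside these shares. JQ1 cells were sequenced with more UMIs in all, so genes of low level passed the filter mostly through the JQ1 library. Of 3401 genes with at least 100 UMIs and 50 CPM, 167 (4.91%) were 2-fold higher and 31 (0.911%) lower. With no gene filter the counts were 1557 higher and 3607 lower, but the floor for a 0 shapes them. A 0 was set to 3 counts, which is a higher CPM over the smaller control sum. Genes with only a few JQ1 UMIs and none in control were thus counted as lower, so these counts give no direction.

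Contractile transcripts did not stand above control for any gene of the list at 1.5-fold: of 32 measured beside the rule's genes, 0 were higher and 3 lower. Over all genes measured the shares were 23.7% and 8.25%, so the count of lower genes was near the all-gene share. The list's median log2 ratio was -0.32. The 3 lower genes were Actg2, Des and Pcp4l1. Pcp4l1, of a calmodulin-binding protein family, had 418 CPM in JQ1 Myh11 cells and 827 CPM in control Myh11 cells, a ratio of 0.506 (0.451 to 0.568). Actg2, the enteric smooth muscle actin, had 193 CPM in JQ1 Myh11 cells and 398 CPM in control Myh11 cells, a ratio of 0.485 (0.41 to 0.575). Des had 321 CPM in JQ1 Myh11 cells and 576 CPM in control Myh11 cells, a ratio of 0.558 (0.487 to 0.641). Each interval lies below 1. Pcp4l1 was also lower in JQ1 pericytes, with 28.9 CPM in JQ1 pericytes and 61.6 CPM in control pericytes. Actg2 was not, with 91 CPM in JQ1 pericytes and 88 CPM in control pericytes. Of the rule's genes, Acta2 had 11907 CPM in JQ1 Myh11 cells and 18964 CPM in control Myh11 cells, and Tagln had 9736 CPM in JQ1 Myh11 cells and 15925 CPM in control Myh11 cells, both given as a description.

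Other contractile genes differed less. Flna, the actin crosslinker filamin A, had 2099 CPM in JQ1 Myh11 cells and 2078 CPM in control Myh11 cells, a ratio of 1.01 (0.945 to 1.08). Lmod1, a nucleator of actin filaments in smooth muscle, had 406 CPM in JQ1 Myh11 cells and 390.2 CPM in control Myh11 cells, a ratio of 1.04 (0.892 to 1.22). Mylk, the myosin light chain kinase, had 1938 CPM in JQ1 Myh11 cells and 2113 CPM in control Myh11 cells, a ratio of 0.917 (0.858 to 0.981). Tpm2 lay lower, with 4038 CPM in JQ1 Myh11 cells and 5904 CPM in control Myh11 cells, a ratio of 0.684 (0.656 to 0.713). The list's median was -0.44 in the Rgs5-high cells and -0.17 in the Rgs5-zero cells. It was -0.25 without barcodes past the 1% limit on another cell type's markers. It was -0.28 in pericytes and -0.59 in fibroblasts. JQ1 Myh11 cells held the larger share of Rgs5-high cells, and makeup and level per cell cannot be told apart in the summed values.

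**Figure D3:**
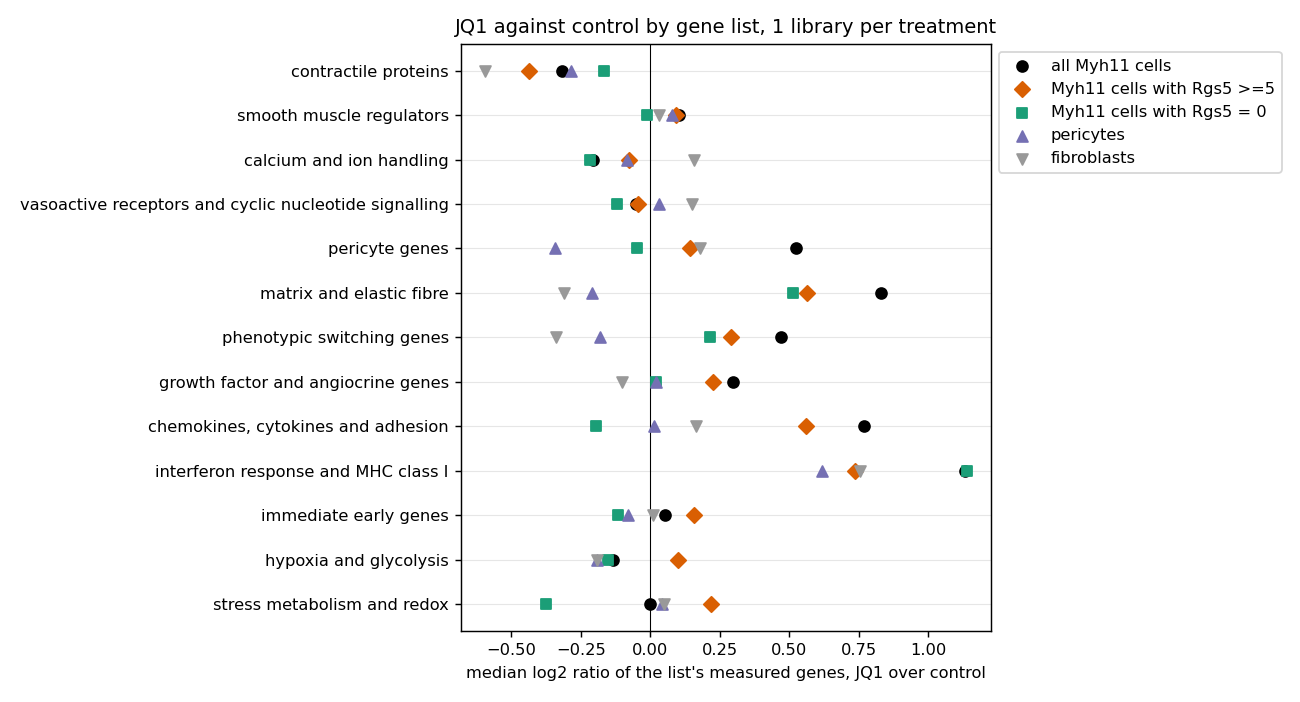
Each point is the median log2 ratio of CPM, JQ1 over control, of a gene list's measured genes, with circles for all Myh11 cells, diamonds and squares for those with at least 5 and with no Rgs5 UMIs, and triangles for pericytes (up) and fibroblasts (down). The interferon and MHC class I list lies above 0 in all 5 groups of cells, while the matrix list lies at 0.83 in all Myh11 cells and below 0 in pericytes and fibroblasts.

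The regulators of smooth muscle identity were largely level: 5 of 28 were 1.5-fold higher and 2 lower, beside 23.7% and 8.25% of all genes. Myocd had 94.1 CPM in JQ1 Myh11 cells and 105 CPM in control Myh11 cells, a ratio of 0.893 (0.661 to 1.23). Srf had 106 CPM in JQ1 Myh11 cells and 105 CPM in control Myh11 cells, a ratio of 1.01 (0.748 to 1.38). Both intervals, which cover counting error only, include 1. Zeb2, a repressor of epithelial genes, was higher, with 316 CPM in JQ1 Myh11 cells and 160 CPM in control Myh11 cells and a ratio of 1.98 (1.57 to 2.52). Klf2, a flow-responsive factor, was lower, with 993 CPM in JQ1 Myh11 cells and 1422 CPM in control Myh11 cells and a ratio of 0.698 (0.642 to 0.76), which is short of 1.5-fold.

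Calcium and ion handling genes were 1.5-fold higher for 3 of 27 and lower for 3, beside 23.7% and 8.25% of all genes. Pln had 501 CPM in JQ1 Myh11 cells and 499 CPM in control Myh11 cells, a ratio of 1.0 (0.875 to 1.15). Kcnj8 had 75 CPM in JQ1 Myh11 cells and 23.4 CPM in control Myh11 cells, a ratio of 3.2 (1.79 to 6.32), and Abcc9 had 105 CPM in JQ1 Myh11 cells and 39 CPM in control Myh11 cells, a ratio of 2.69 (1.7 to 4.47). The KATP channel genes that mark pericytes were thus higher over all Myh11 cells, where control held 12 Kcnj8 and 20 Abcc9 UMIs. In Rgs5-high cells Abcc9 had 193 CPM in JQ1 and 130 CPM in control, and Kcnj8 had 141 and 68.6 CPM. Control Rgs5-zero cells held only 2 Kcnj8 UMIs and 1 Abcc9 UMI. Neither gene was higher in JQ1 pericytes, with 352 CPM in JQ1 and 374 CPM in control for Kcnj8, and 423 and 453 CPM for Abcc9. The part of makeup in this was not tested. Kcnma1, the large-conductance potassium channel, was lower, with 42.2 CPM in JQ1 Myh11 cells and 78 CPM in control Myh11 cells and a ratio of 0.54 (0.371 to 0.801). Of 30 vasoactive genes, 5 were higher and 2 lower, beside the same all-gene shares. Ednrb had 378 CPM in JQ1 Myh11 cells and 174 CPM in control Myh11 cells, a log2 ratio of 1.12. That ratio was 0.79 in Rgs5-high and -0.85 in Rgs5-zero cells, so its direction depended on the subset. F2r, the thrombin receptor, had 107 UMIs in JQ1 and 0 in control Myh11 cells. Its ratio was 7.79 with the control count set to the floor of 3 counts, which is not a lower bound. Ednra, the main constrictor endothelin receptor of smooth muscle, had 204 CPM in JQ1 Myh11 cells and 211 CPM in control Myh11 cells, with a ratio of 0.968 (0.784 to 1.2).

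Many genes of the extracellular matrix were higher in JQ1 Myh11 cells. Of 56 measured, 34 were 1.5-fold higher and 1 lower, and 21 were 2-fold higher. Postn, the matricellular protein periostin, had 351 CPM in JQ1 Myh11 cells and 74.1 CPM in control Myh11 cells, a ratio of 4.73 (3.42 to 6.74). Col1a2, a chain of fibrillar collagen I, had 349 CPM in JQ1 Myh11 cells and 119 CPM in control Myh11 cells, a ratio of 2.93 (2.26 to 3.87). Col4a1 had 687 CPM in JQ1 Myh11 cells and 351 CPM in control Myh11 cells, a ratio of 1.96 (1.68 to 2.29). Fibrillar and basement membrane collagens were thus both higher. Nid1, the basement membrane linker nidogen, had 127 CPM in JQ1 Myh11 cells and 35.1 CPM in control Myh11 cells, a ratio of 3.61 (2.25 to 6.18). Fbn1, the microfibril protein fibrillin, had 101 CPM in JQ1 Myh11 cells and 33.2 CPM in control Myh11 cells, a ratio of 3.03 (1.85 to 5.29). Col3a1, collagen III, had 438 CPM in JQ1 Myh11 cells and 195 CPM in control Myh11 cells, of which 1 JQ1 cell held 32.9% of the JQ1 UMIs. Elastin (Eln) was not among the higher genes, with 85.2 CPM in JQ1 Myh11 cells and 113 CPM in control Myh11 cells and a ratio of 0.753 (0.559 to 1.03). The lower gene was Sparcl1, a relative of Sparc, with 2121 CPM in JQ1 Myh11 cells and 3196 CPM in control Myh11 cells and a ratio of 0.664 (0.627 to 0.702).

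The list's median log2 ratio was 0.83 over all Myh11 cells, 0.56 in the Rgs5-high cells and 0.52 in the Rgs5-zero cells. It was 0.84 without barcodes past the 1% limit on another cell type's markers, a limit that an even mix with a fibroblast would pass. In pericytes it was -0.21, in fibroblasts -0.31 and in endothelial cells 0.08. Postn had 961 CPM in JQ1 pericytes and 1571 CPM in control pericytes, and Col1a2 had 821 CPM in JQ1 pericytes and 1003 CPM in control pericytes, the opposite order to the Myh11 cells. Fibroblast transcripts were also found in cells that should lack them. Dcn, a proteoglycan of fibroblasts, had 539.7 CPM in JQ1 Myh11 cells and 123 CPM in control Myh11 cells, beside 519 CPM in JQ1 endothelial cells and 211 CPM in control endothelial cells. Col1a2 in the endothelial gate had 135 and 33.2 CPM, and Postn had 51.6 and 32.8 CPM. Those endothelial levels are below the Myh11 cells' levels for Col1a2 and Postn in both libraries. For Dcn they are close to the Myh11 cells in JQ1 and above them in control. After each cell was thinned to 2000 UMIs, Col1a2 was present in 30.2% of JQ1 and 19% of control Myh11 cells. The part of free RNA in the list's ratio was not tested.

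Pericyte genes beside Rgs5 were 1.5-fold higher for 10 of 22 and lower for none. The median log2 ratio was 0.52 over all Myh11 cells, 0.14 in the Rgs5-high cells and -0.05 in the Rgs5-zero cells. It was 0.63 without barcodes past the 1% limit on another cell type's markers. The subset medians rest on other sets of measured genes than the 22. In the Rgs5-high cells 21 were measured, 4 of them 1.5-fold higher and 4 lower. In the Rgs5-zero cells 14 were measured, 2 of them higher and 3 lower. Both subset medians were smaller in size than that over all Myh11 cells, and the part of makeup in this was not tested. Steap4, a metalloreductase found in pericytes, had 52.4 CPM in JQ1 Myh11 cells and 23.4 CPM in control Myh11 cells, a ratio of 2.24 (1.24 to 4.45). Within pericytes the same list had a median of -0.34.

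Interferon response and antigen presentation genes were 1.5-fold higher in JQ1 Myh11 cells for 20 of 28 and lower for none, and 17 were 2-fold higher. Over all genes measured, 23.7% were higher and 8.25% lower at 1.5-fold, and 12.1% were 2-fold higher. Genes of low level entered mostly through the JQ1 cells, which held more UMIs. Within the control library, 13 genes of the list passed the same filter over Myh11 cells and pericytes. H2-K1, an MHC class I heavy chain, had 715 CPM in JQ1 Myh11 cells and 304 CPM in control Myh11 cells, a ratio of 2.35 (1.99 to 2.79). B2m, the light chain of MHC class I, had 481 CPM in JQ1 Myh11 cells and 215 CPM in control Myh11 cells, a ratio of 2.24 (1.84 to 2.75). Gbp2, a GTPase induced by interferon, had 109 CPM in JQ1 Myh11 cells and 15.6 CPM in control Myh11 cells, a ratio of 6.96 (3.48 to 16.3). The heavy chain, the light chain and the induced GTPase were all higher. Iigp1, another interferon-induced GTPase, had 202 UMIs in JQ1 and 5 UMIs in control Myh11 cells, a ratio of 8.82 (3.72 to 27.5). Tapbp, which loads peptides onto MHC class I, had 82.2 CPM in JQ1 Myh11 cells and 29.3 CPM in control Myh11 cells, a ratio of 2.81 (1.66 to 5.12). Not every gene of the list was higher: Irf1, an early interferon-induced factor, had 314 CPM in JQ1 Myh11 cells and 329.7 CPM in control Myh11 cells, a ratio of 0.951 (0.803 to 1.13). Ifitm3 had 1346 CPM in JQ1 Myh11 cells and 1149 CPM in control Myh11 cells, a ratio of 1.17 (1.07 to 1.28).

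This list had a positive median in each group of cells compared. The log2 median was 1.13 over all Myh11 cells, 0.74 in the Rgs5-high cells and 1.14 in the Rgs5-zero cells. It was 1.15 without barcodes past the 1% limit on another cell type's markers. It was 0.62 in pericytes, 0.75 in fibroblasts and 0.52 in endothelial cells, beside medians over all measured genes of 0.08, 0.08 and 0.06. H2-K1 had 1431 CPM in JQ1 pericytes and 919.6 CPM in control pericytes. Over all kept cells H2-K1 had 1323 CPM in JQ1 and 724 CPM in control. The list was thus higher in the other stromal gates as well. Iigp1 had 324 CPM in JQ1 endothelial cells and 213 CPM in control endothelial cells, above the Myh11 cells, and the part of free RNA in these ratios was not tested. A difference between Myh11 cells and the other gates was not tested.

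**Figure D4:**
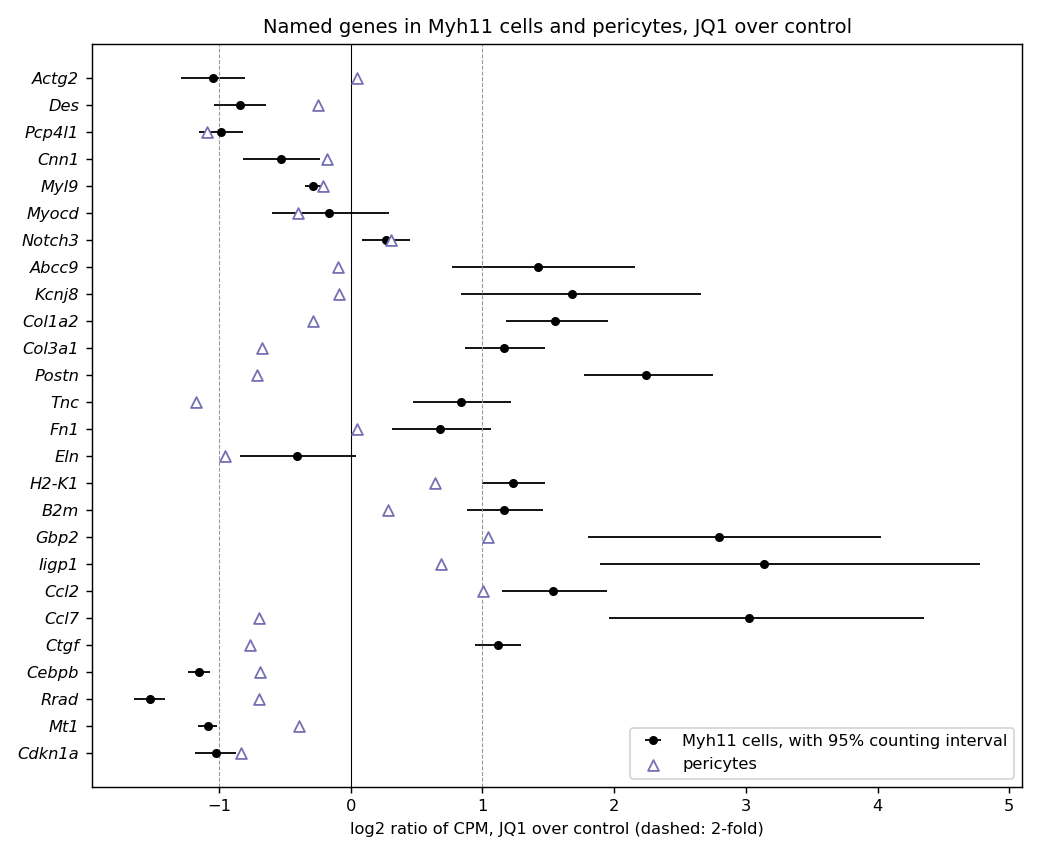
The x axis gives the log2 ratio of CPM, JQ1 over control, with black points and 95% counting intervals for Myh11 cells, open triangles for pericytes and dashed lines at 2-fold. Postn lies at 2.24 in Myh11 cells and -0.71 in pericytes, H2-K1 lies right of 0 in both, and Rrad, Cebpb, Mt1 and Cdkn1a lie left of 0 in both.

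Chemokine, cytokine and adhesion genes were 1.5-fold higher for 15 of 30 and lower for 1. The median log2 ratio was 0.77 over all cells, 0.56 in the Rgs5-high cells and -0.19 in the Rgs5-zero cells. It was 0.63 without barcodes past the 1% limit on another cell type's markers. Ccl2, which draws monocytes, had 328 CPM in JQ1 Myh11 cells and 113 CPM in control Myh11 cells, a ratio of 2.9 (2.22 to 3.85). Its log2 ratio was 1.91 in Rgs5-high and 0.37 in Rgs5-zero cells, so the larger ratio was in the cells with Rgs5. Cxcl12, a stromal chemokine that retains cells bearing CXCR4, had 103 CPM in JQ1 Myh11 cells and 44.9 CPM in control Myh11 cells, a ratio of 2.29 (1.49 to 3.68). Il6 and Cxcl1, inflammatory mediators of stromal cells, differed less. Il6 had 494 CPM in JQ1 Myh11 cells and 453 CPM in control Myh11 cells, a ratio of 1.09 (0.947 to 1.26), and Cxcl1 had 987 CPM in JQ1 Myh11 cells and 1095 CPM in control Myh11 cells, a ratio of 0.901 (0.822 to 0.99). The lower gene was the cytokine Lif, whose 19 control UMIs all came from 1 cell.

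Genes linked to the switch of smooth muscle from a contractile to a synthetic state were 1.5-fold higher for 11 of 24 and lower for 2. Ctgf, a matricellular protein induced by YAP and TGF-beta signalling, had 1247 CPM in JQ1 Myh11 cells and 576 CPM in control Myh11 cells, a ratio of 2.17 (1.92 to 2.45). Its log2 ratio was 0.36 in Rgs5-high and 1.69 in Rgs5-zero cells. Cyr61, a relative of Ctgf, had 1064 CPM in JQ1 Myh11 cells and 572 CPM in control Myh11 cells, a ratio of 1.86 (1.65 to 2.11). Both matricellular genes were higher. Vim, the mesenchymal intermediate filament, was lower, with 3118 CPM in JQ1 Myh11 cells and 4747 CPM in control Myh11 cells and a ratio of 0.657 (0.627 to 0.688). Klf4, a factor that represses contractile genes, had 618 CPM in JQ1 Myh11 cells and 780.4 CPM in control Myh11 cells, a ratio of 0.792 (0.709 to 0.887). Spp1, osteopontin, had 91.2 CPM in JQ1 Myh11 cells and 1202 CPM in control Myh11 cells, but 1 control cell held 55.4% of the control UMIs. Growth factor and angiocrine genes were 1.5-fold higher for 11 of 37 and lower for 3, beside 23.7% and 8.25% of all genes. Igf1 had 160 UMIs in JQ1 and 1 UMI in control Myh11 cells, beside 30.8 CPM in JQ1 endothelial cells and 13.9 CPM in control endothelial cells.

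The genes ranked lowest in JQ1 against control had varied functions. Rrad, a Ras-like GTPase that restrains L-type calcium channels, had 646 CPM in JQ1 Myh11 cells and 1861 CPM in control Myh11 cells, a ratio of 0.347 (0.32 to 0.377). Cebpb, a transcription factor of inflammation, had 1571 CPM in JQ1 Myh11 cells and 3496 CPM in control Myh11 cells, a ratio of 0.449 (0.425 to 0.476). Mt1, a metallothionein that binds metal ions, had 2111 CPM in JQ1 Myh11 cells and 4482 CPM in control Myh11 cells, a ratio of 0.471 (0.448 to 0.495). All 3 intervals lie well below 1. Cdkn1a, the cell cycle inhibitor p21, had 475 CPM in JQ1 Myh11 cells and 966 CPM in control Myh11 cells, a ratio of 0.491 (0.442 to 0.547). Rasl11a, another small Ras-like GTPase, had 616 CPM in JQ1 Myh11 cells and 1516 CPM in control Myh11 cells, a ratio of 0.406 (0.372 to 0.444). Emd, the nuclear envelope protein emerin, had 139.7 CPM in JQ1 Myh11 cells and 334 CPM in control Myh11 cells, a ratio of 0.419 (0.347 to 0.507).

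These differences were larger in the cells without Rgs5 for some genes and like in both for others. The log2 ratio of Rrad was -0.78 in Rgs5-high and -1.93 in Rgs5-zero cells. That of Mt1 was -0.20 and -1.36, and that of Rasl11a -0.31 and -1.97. For Emd the values were -1.16 and -1.19, and for Cdkn1a -0.71 and -1.13. In pericytes Rrad was also lower, with 394 CPM in JQ1 pericytes and 638 CPM in control pericytes, and so was Cebpb, with 1593 CPM in JQ1 pericytes and 2569.6 CPM in control pericytes. Emd was not lower there, with 70.5 CPM in JQ1 pericytes and 48.4 CPM in control pericytes, the control value resting on 11 UMIs. Rasl11a had 276 CPM in JQ1 pericytes and 290.4 CPM in control pericytes. Whether the ratios differ between the subsets or between the cell types was not tested.

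The ranked genes that were higher in JQ1 cells, beside those already given, included a pair of transporters. Slc12a2, the sodium, potassium and chloride cotransporter NKCC1, had 206 CPM in JQ1 Myh11 cells and 56.6 CPM in control Myh11 cells, a ratio of 3.64 (2.5 to 5.49). Slc5a3, which imports the osmolyte myo-inositol, had 127 CPM in JQ1 Myh11 cells and 31.2 CPM in control Myh11 cells, a ratio of 4.05 (2.45 to 7.18). Angptl2, a secreted protein related to angiopoietins, had 165 CPM in JQ1 Myh11 cells and 46.8 CPM in control Myh11 cells, a ratio of 3.53 (2.34 to 5.58). Each interval lies above 1. Reck, a membrane inhibitor of matrix metalloproteinases, had 121 UMIs in JQ1 and 4 UMIs in control Myh11 cells, a ratio of 6.6 (2.51 to 24.6).

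Genes known from other cells to respond to BET inhibitors gave small counts here. Of 9 genes often raised by such inhibitors, 1 was 1.5-fold higher and 2 lower, with a median log2 ratio of -0.08. Hexim1, an inhibitor of transcription elongation that is used as a marker of BET inhibition, had 159 CPM in JQ1 Myh11 cells and 113 CPM in control Myh11 cells, a ratio of 1.41 (1.07 to 1.89). Of 12 genes often lowered, 4 were higher and 1 lower, with a median of 0.15. Myc, a growth regulator often lowered by JQ1, had 153 CPM in JQ1 Myh11 cells and 137 CPM in control Myh11 cells, a ratio of 1.12 (0.867 to 1.47). The interval for Myc includes 1.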

How the data were processed

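The deposited matrices hold whole UMI counts for each gene and barcode, over 31053 genes. Per the submitters' processing notes, the tools were Cell Ranger (3.1.0) and Seurat (4.0.0) on mm10; steps and barcode filters were not stated, and the lowest deposited total was 500 UMIs. The labels tie no cell to an animal, so each group is 1 sample and no test was made.

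Kept barcodes held 200 genes or more and under 20% mitochondrial UMIs; 1056 JQ1 and 1481 control barcodes fell at that mitochondrial limit. Scrublet (scanpy 1.11.5) was run on each library and marked 424 kept JQ1 (2.93%) and 119 kept control barcodes (1.44%) as doublets, which stayed in; leaving them out was an alternative. Raw counts were summed over the cells of a type in a library and scaled to CPM. Pericytes, fibroblasts and endothelial cells were gated the same way, from a few marker counts.

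Genes counted as measured had at least 20 UMIs over both groups and 10 CPM in the higher. They were called at 2-fold, and lists also at 1.5-fold, with a count of 0 set to 3 counts for the group. Ratios have exact conditional 95% intervals and shares have Clopper-Pearson intervals. The 9 genes of the rule were kept out of the list counts and of the counts against pericytes and between Rgs5 subsets. They stayed in the all-gene counts and shares of JQ1 against control. The 17 lists hold 490 entries, of which a few single genes and 1 short list are not reported here; the gate and the lists were chosen with earlier results of these data known. Beside list genes, genes were named by the interval bound nearest to 1, among those with at least 50 UMIs, 50 CPM, a UMI in 10% of the higher group's cells, 0.5 times the library-wide CPM and no cell with over 25% of the UMIs: 12 in each direction for JQ1 against control, 15 higher and 10 lower against pericytes, and 12 in each direction between the Rgs5 subsets. Mitochondrial, ribosomal, haemoglobin, sex-linked and predicted genes were not ranked. Shares of cells were also counted with each cell thinned to 2000 UMIs, which left out 20 JQ1 and 2 control Myh11 cells. The ratio code was tested on simulated counts. Alternatives changed the cell filter, the gate, doublet removal, scaling, thinning, the gene filter and the fold singly; those on a single Rgs5 subset and on barcodes with another cell type's markers, and the ranking between Rgs5 subsets, were chosen after seeing the data. The software was Python 3.11.15 with matplotlib 3.10.9, pandas 2.3.3, scipy 1.17.1 and numpy 2.4.6.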

Additional observations from a re-analysis of the deposited data

Results flagged for a closer look

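A set of genes had opposite directions in Myh11 cells and pericytes, each being at least 1.5-fold higher or lower in JQ1 against control in both cell types. The difference between the cell types was not tested, since each library gives 1 value. Among matrix genes the log2 ratio of JQ1 over control was 2.24 in Myh11 cells and -0.71 in pericytes for Postn, and 1.17 and -0.67 for Col3a1. It was 0.83 in Myh11 cells and -0.60 in pericytes for Bgn, a small proteoglycan, and 0.84 and -1.17 for Tnc, for which 61% of the control UMIs came from 1 Myh11 cell. For Col3a1 a single JQ1 Myh11 cell held a large part of the JQ1 UMIs, as given above. Postn was found in 25.8% of control Rgs5-high and 1.75% of control Rgs5-zero Myh11 cells, so its control value rests on few cells. For Ctgf the values were 1.12 in Myh11 cells and -0.76 in pericytes. The adhesion molecule Icam1 gave 1.09 in Myh11 cells and -0.90 in pericytes, and Tnfaip3, a brake on NF-kappaB, gave 0.98 and -0.71.

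Other genes in the same position rest on few UMIs or on few cells. Col15a1 (3.03 in Myh11 cells and -0.95 in pericytes), Fbln2 (2.57 and -0.66), Mmp3 (3.09 and -3.28), Cxcl9 (5.57 and -1.08) and Ccl7 (3.03 and -0.69) had between 1 and 7 UMIs in control Myh11 cells. For Spp1 (-3.72 in Myh11 cells and 1.63 in pericytes), 55% of the control UMIs came from 1 Myh11 cell.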

How the results depend on the processing

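Of 79 summary values under the alternatives 60 moved by less than counting error or 1.5 times. Most of the 79 are shares or gene counts, which have no sign to change. The contractile median, which has a sign, stayed below 0 under each alternative that gave it. The JQ1 share of Myh11 cells was 2.23% with a 10% mitochondrial limit and 2.22% with at least 5 Myh11 UMIs. The contractile median was -0.13 with Rgs5-high cells left out, which raised the genes lower in Myh11 cells than in pericytes to 375. Genes lower in JQ1 Myh11 cells numbered 254 with size-factor scaling and 286 in Rgs5-high cells alone. With cells thinned, genes higher in JQ1 cells numbered 654, and against pericytes 191 were higher and 137 lower. With no gene filter, 1557 were higher and 3607 lower in JQ1 cells, and 399 higher and 926 lower against pericytes. The floor of 3 counts for a 0 puts genes with few UMIs, seen only in the JQ1 or the Myh11 cells, among the lower. These unfiltered counts thus give no direction. With 100 UMIs and 50 CPM, the counts were 167 and 31 for JQ1 and 102 and 86 against pericytes, and at 1.5-fold 2069 and 721 and 562 and 526, higher first. Some genes changed direction. Without doublet calls, log2 JQ1 over control was 0.55 for Hmox1 and 1.67 for Lif, each resting on 1 control cell. With Rgs5-high cells left out it was -0.50 for Timp1, -0.041 for Cxcl10 and -0.074 for Ednrb, and in Rgs5-zero cells alone -0.92, -0.65 and -0.85. In Rgs5-high cells alone it was 3.54 for Spp1, -0.18 for Irf7, 1.54 for Hmox1 and 0.60 for Lif. Fewer cells and fewer UMIs are part of the subset and thinning settings; otherwise the cause was not tested. No paired analysis was possible because each treatment has 1 library. Depth limits the control values, which rest on 512537 UMIs in 102 Myh11 cells.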

Other observations

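Immediate early and heat shock genes, which can be induced by tissue dissociation as well as by signals in tissue, were present in the Myh11 cells of both libraries. Of 28 measured, 2 were at least 1.5-fold higher in JQ1 cells and 6 lower, beside 23.7% and 8.25% of all genes. The higher ones were the heat shock chaperones Hspa1a (2669 CPM in JQ1 Myh11 cells and 1188 CPM in control Myh11 cells) and Hspa1b (3081 CPM in JQ1 Myh11 cells and 1319 CPM in control Myh11 cells). Pericytes showed the same order, with 4792 CPM in JQ1 pericytes and 3032 CPM in control pericytes for Hspa1a. Atf3, a stress-induced factor, had 1861 CPM in JQ1 Myh11 cells and 3188 CPM in control Myh11 cells, a ratio of 0.584 (0.551 to 0.618), and Nr4a2, an orphan nuclear receptor, had 501 CPM in JQ1 Myh11 cells and 944 CPM in control Myh11 cells, a ratio of 0.53 (0.477 to 0.591). Fos, the first-induced partner of Jun, had 5311 CPM in JQ1 Myh11 cells and 6636 CPM in control Myh11 cells, a ratio of 0.80 (0.771 to 0.832). The list thus held genes on both sides, with a median log2 ratio of 0.05.

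Genes of hypoxia and glycolysis were close to level in Myh11 cells: 1 of 19 was 1.5-fold higher, 1 was lower, and the median log2 ratio was -0.14. Gapdh, a glycolytic enzyme, had 984 CPM in JQ1 Myh11 cells and 1147 CPM in control Myh11 cells, and Epas1, the hypoxia-inducible factor of vessels, had 809 CPM in JQ1 Myh11 cells and 719.9 CPM in control Myh11 cells. Of 22 genes of stress metabolism, 5 were 1.5-fold higher and 4 lower, beside 23.7% and 8.25% of all genes. Among the lower ones was Mt2, a metallothionein, with 443 CPM in JQ1 Myh11 cells and 816 CPM in control Myh11 cells and a ratio of 0.543 (0.484 to 0.61). Cell cycle genes had few UMIs. Mki67, a marker of cycling cells, had 12 UMIs in JQ1 and 0 UMIs in control Myh11 cells, and Top2a, which untangles DNA in dividing cells, had 19 and 0 UMIs. In JQ1 cells 41.7% of the Mki67 UMIs came from 1 cell.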
